A study of Mus musculus with 2 samples.

Results

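The sterol synthesis genes described here are 7 genes chosen by symbol, Hmgcs1, Idi1, Fdps, Fdft1, Sqle, Dhcr7 and Insig1. All 7 were found among the 34400 gene identifiers of the 2 deposited tables. They were read in tumours grown from CT26 cells, a mouse colorectal cancer line that the labels describe as placed at the cecal junction to give an orthotopic model. The same labels also speak of subcutaneous growth, so the tumour site is not settled. Dosing began at a tumour size of 50 to 100 mm3. The SLC7A11-Ab group received an antibody against SLC7A11, a cystine transporter, at 10 mg/kg every 2 days, and the Control group received anti-IgG at the same dose and interval. Each group is 1 single-cell library from dissociated tumour tissue, and the labels do not say how many mice it holds. With 1 library per group no test between groups was possible, and the values in brackets after a log2 ratio are exact 95% intervals that cover counting error only.

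Cholesterol is built from acetyl-CoA by way of mevalonate and squalene. When the endoplasmic reticulum runs low in sterol, the transcription factor SREBP2 is carried out by its escort SCAP, is cleaved, and switches on the enzymes of the pathway. When sterol is ample, INSIG proteins hold SCAP back, and oxysterols activate the LXR nuclear receptors, which switch on sterol export. Among the 7 genes, Hmgcs1 encodes HMG-CoA synthase, Idi1 and Fdps make isoprenoid units and farnesyl pyrophosphate, Fdft1 encodes squalene synthase, Sqle oxidises squalene, Dhcr7 encodes a late reductase, and Insig1 encodes a feedback protein.

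RefSeq promoter windows (build GRCm38.p6) were matched for 4 of the 7 genes. The 250 bases before the start are shown for the 3 genes on which the results turn most: Insig1, highest of the 7 in its SLC7A11-Ab over Control ratio in tumour cells, Hmgcs1, the next highest, and Idi1, lowest in its ratio of hypoxic over other tumour cells. The windows lie on the plus strand at chr5:28071162-28071411 for Insig1, chr13:119690101-119690350 for Hmgcs1 and chr13:8885356-8885605 for Idi1. Capitals mark each match, on either strand, to the letters TCACNCCAC of the sterol regulatory element, to the CCAAT box or to the E-box CACGTG, and no match overlapped another.
Insig1: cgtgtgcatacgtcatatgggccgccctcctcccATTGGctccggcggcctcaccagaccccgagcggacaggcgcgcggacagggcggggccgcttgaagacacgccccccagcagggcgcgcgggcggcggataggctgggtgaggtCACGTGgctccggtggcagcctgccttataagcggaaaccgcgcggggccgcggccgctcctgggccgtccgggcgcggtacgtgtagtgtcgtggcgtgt
Hmgcs1: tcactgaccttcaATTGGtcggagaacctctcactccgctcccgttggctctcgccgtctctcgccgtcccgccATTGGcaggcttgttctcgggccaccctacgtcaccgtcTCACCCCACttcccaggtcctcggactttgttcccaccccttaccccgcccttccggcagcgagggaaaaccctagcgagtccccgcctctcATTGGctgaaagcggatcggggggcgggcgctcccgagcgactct
Idi1: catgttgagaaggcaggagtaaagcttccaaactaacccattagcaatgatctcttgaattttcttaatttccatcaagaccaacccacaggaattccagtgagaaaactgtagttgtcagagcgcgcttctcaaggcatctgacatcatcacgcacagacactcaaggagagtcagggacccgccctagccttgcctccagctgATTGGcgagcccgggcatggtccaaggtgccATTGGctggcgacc
The Hmgcs1 window held 1 match to the sterol regulatory element, starting 137 bases before the start, and 3 to the CCAAT box. The Idi1 window held 2 matches to the CCAAT box, and the Insig1 window held 1 match to it and 1 to the E-box. Of 32851 windows of the same length, 1.05% held the sterol regulatory element letters, 33.8% the CCAAT box and 6.02% the E-box. The matches describe letters only.

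After filtering, 10897 SLC7A11-Ab and 12326 Control cells remained, with a median of 7201 and 7052 UMIs, and the libraries shared 39 barcodes. Cells were put in classes by marker UMIs. The tumour class (1376 SLC7A11-Ab and 2440 Control cells) carried a Krt8 or Krt18 UMI, no UMI of Ptprc or of 4 Y-linked genes, and at least 2000 UMIs. A second class met the same terms with no keratin UMI and is called gate-negative (4304 and 6870 cells). Median depth in the tumour class was 19134 UMIs in SLC7A11-Ab and 11612 in Control. The labels give goblet cells as the cell type, but the goblet genes Muc2, Tff3, Spink4, Agr2 and Fcgbp summed to 18 UMIs in the SLC7A11-Ab library and 19 in the Control library. A level is given in CPM, the UMIs of a gene among 1000000 UMIs of its class. In class sums, fewer expressing cells and less RNA per cell cannot be told apart.

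Among classes of at least 50 cells, the sterol genes were read most strongly in plasmacytoid dendritic cells (pDC) and in tumour-type cells, and their sum was lowest in neutrophils. In the SLC7A11-Ab library the summed level of the 7 genes was 631 CPM in 70 pDC, 287 in gate-negative cells, 257 in tumour cells, 210.4 in fibroblasts, 141 in monocytes, 119 in T cells, 100.4 in NK cells, 91.8 in C1q macrophages and 53.3 in neutrophils. The intervals of the first 4 neighbouring pairs in this order did not overlap, and those of the other 4 did. In the Control library the summed level was 252 CPM in tumour cells, 249 in gate-negative cells, 188 in fibroblasts, 149 in C1q macrophages, 139 in monocytes, 124 in NK cells, 94.3 in T cells and 35.7 in neutrophils. Of its 7 neighbouring pairs 6 overlapped, the exception being gate-negative cells above fibroblasts. Depth differed between the classes, with SLC7A11-Ab medians of 2388 UMIs in T cells and 2949 in monocytes against 19134 in tumour cells. SLC7A11-Ab tumour cells at 5000 to 10000 UMIs stood at 126 CPM (106 to 149). Gate-negative cells of that library stood at 202 CPM (186 to 219) at 2000 to 5000 UMIs. Control tumour cells stood at 186 CPM (154 to 224) at 2000 to 5000 UMIs. The part of depth in the order was not tested.

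**Figure D1:**
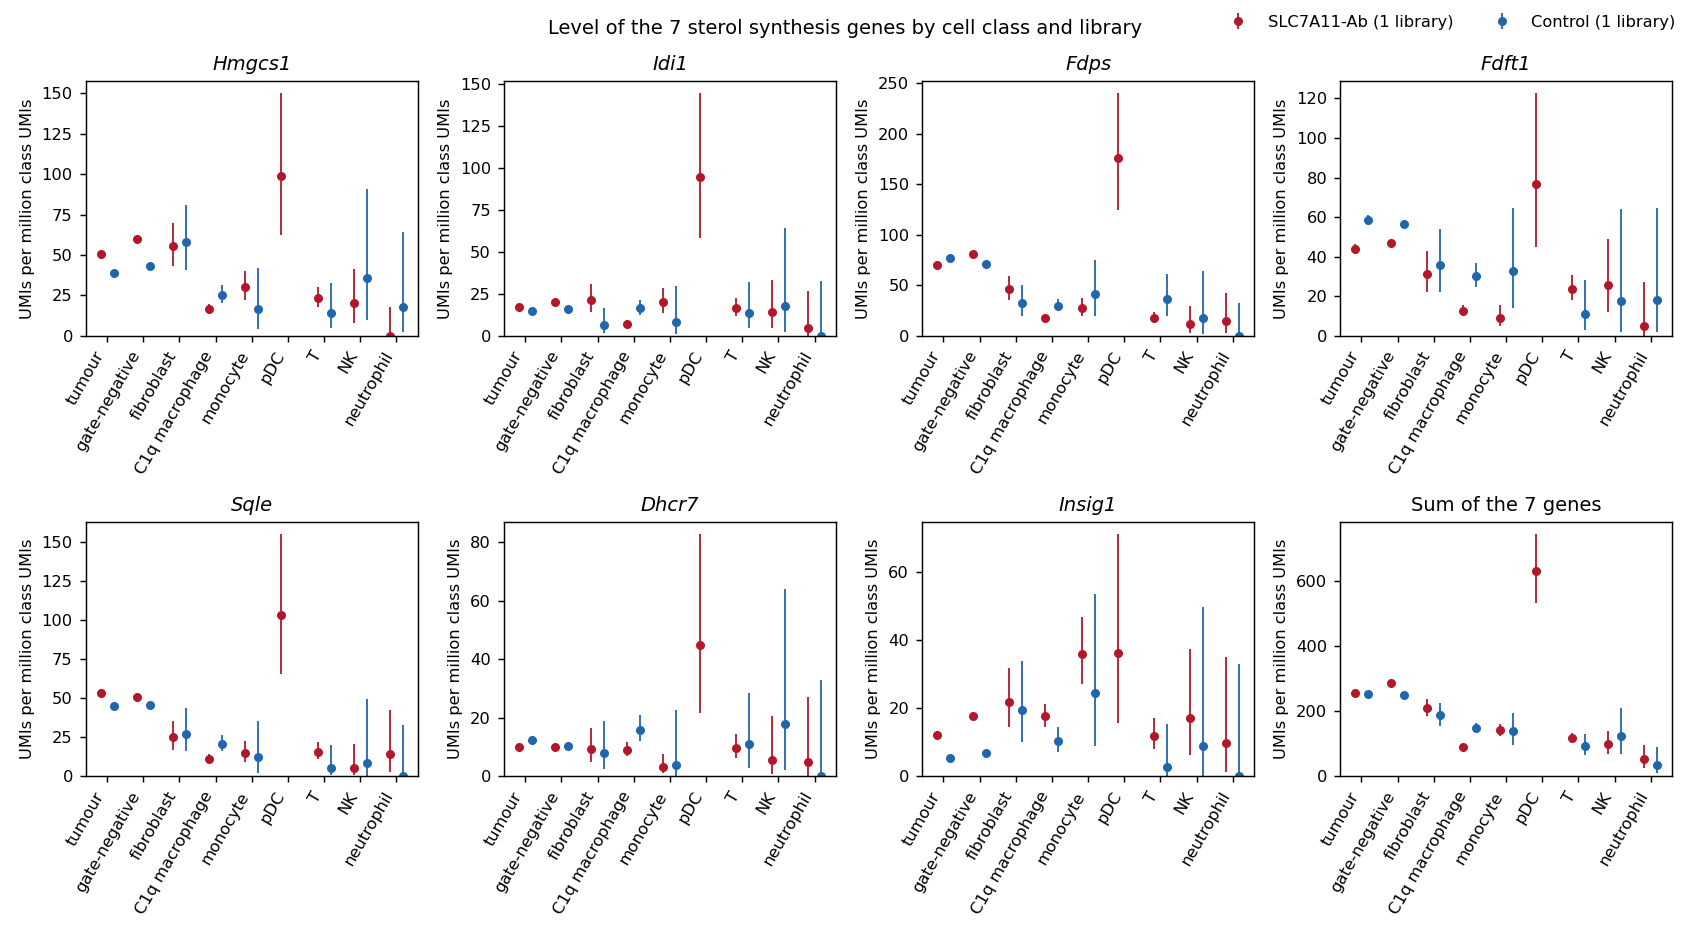
Level of each of the 7 genes and of their sum (CPM, vertical axis) by cell class, with SLC7A11-Ab in red left of Control in blue. Points are 1 library each, bars are exact Poisson 95% intervals, and pDC, shown for SLC7A11-Ab, reach the highest point in each panel.

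Plasmacytoid dendritic cells, known as makers of type I interferon and gated here on Siglech, Ccr9, Klk1 and Cox6a2, had the highest measured level of each of the 7 genes among the 9 SLC7A11-Ab classes with at least 50 cells. For the sum and for Idi1, Fdps and Sqle the pDC interval lay above that of each of the other 8 classes, while for Hmgcs1, Fdft1, Dhcr7 and Insig1 it overlapped at least 1 of them. Insig1 was at 36.0 CPM in pDC, on 8 UMIs, and at 35.9 CPM in monocytes, so the 2 classes could not be ordered for it. Idi1 stood at 94.6 CPM in pDC against 17.0 CPM in tumour cells, a log2 ratio of 2.51 (1.77 to 3.10). Dhcr7 stood at 45.1 CPM in pDC against 9.97 CPM in tumour cells (2.24, 1.10 to 3.08), on 10 pDC UMIs. The sum gave 1.30 (1.04 to 1.54), and 5 of the 7 genes were at least 2-fold higher, as were 33.3% of all genes with at least 20 UMIs. The median ratio of all these genes was 0.38, with 60% above 0. Median depth was 3209 UMIs in pDC and 19134 UMIs in tumour cells, and the part of depth was not tested. The Control library held 12 pDC with 15 UMIs of the 7 genes, a level of 423 CPM (237 to 698). Type 1 conventional dendritic cells, gated on Xcr1, Clec9a, Flt3 and Snx22, stood at 212 CPM (160.4 to 276) in 34 SLC7A11-Ab cells and 427 CPM (296 to 597) in 17 Control cells. In the Control library the high level was thus not particular to pDC.

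Within each library the sterol genes were lower in hypoxic tumour cells, defined here as cells with at least 1500 CPM of the hypoxia-induced genes Car9, Ndrg1, Egln3, Ankrd37 and Bnip3 summed. In the SLC7A11-Ab library the summed level was 149 CPM in 446 hypoxic tumour cells against 295 CPM in 930 other tumour cells (-0.98, -1.07 to -0.89). In the Control library it was 126 CPM in 339 hypoxic tumour cells against 268 CPM in 2101 others (-1.08, -1.23 to -0.95). The gate-negative class, which shares no cell with the tumour class, gave -1.08 (-1.16 to -1.01) in SLC7A11-Ab and -1.02 (-1.14 to -0.90) in Control.

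Over cells of all depths, the isoprenoid steps stood farthest apart. Idi1 was at 4.67 CPM in hypoxic and 21.3 CPM in other SLC7A11-Ab tumour cells (-2.17, -2.72 to -1.70), and at 2.85 CPM in hypoxic and 15.9 CPM in other Control tumour cells (-2.41, -3.55 to -1.59). Its ratio was the lowest of the 7 in both classes of both libraries, followed each time by Fdps. Fdps was at 33.2 against 83.4 CPM in SLC7A11-Ab tumour cells (-1.32, -1.52 to -1.14) and 31.7 against 82.9 CPM in Control tumour cells (-1.38, -1.68 to -1.11). Hmgcs1, at the start of the pathway, was at 24.7 against 59.1 CPM in SLC7A11-Ab tumour cells (-1.26, -1.49 to -1.04) and 18.6 against 41.3 CPM in Control (-1.14, -1.54 to -0.79).

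In tumour cells the ratios of the other 4 genes lay nearer to 0. Fdft1 was at 27.7 against 49.5 CPM in SLC7A11-Ab tumour cells (-0.84, -1.06 to -0.63) and 36.8 against 61.1 CPM in Control (-0.73, -1.001 to -0.47). Sqle was at 40.8 against 57.8 CPM in SLC7A11-Ab (-0.50, -0.69 to -0.32) and 23.7 against 47.9 CPM in Control (-1.01, -1.35 to -0.70). Dhcr7 gave -0.36 (-0.80 to 0.035) in SLC7A11-Ab and -0.53 (-1.12 to -0.017) in Control. Insig1, the feedback gene, gave -0.36 (-0.75 to 0.0032) in SLC7A11-Ab and -0.55 (-1.54 to 0.21) in Control, but stood at 9.61 CPM in hypoxic and 19.6 CPM in other SLC7A11-Ab gate-negative cells (-1.02, -1.34 to -0.73). In Control gate-negative cells it was at 5.70 CPM in hypoxic and 6.89 CPM in other cells (-0.25, -0.91 to 0.30), an interval that held 0.

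Levels at least 2-fold lower in hypoxic cells were found for 3 of the 7 genes in SLC7A11-Ab tumour cells, against 6.74% of all genes, and for 4 of 7 in Control tumour cells, against 6.59%. In gate-negative cells the counts were 5 of 7 in SLC7A11-Ab, against 6.80%, and 3 of 7 in Control, against 7.79%. The median ratio of all genes lay between -0.14 and -0.11. Of 15 other enzymes of cholesterol synthesis, 14 had at least 20 UMIs in the tumour class; 6 of them were at least 2-fold lower in each library, with medians of -0.86 in SLC7A11-Ab and -0.78 in Control, and none was above 0. Fatty acid synthesis genes had medians of -0.43 in SLC7A11-Ab and -0.23 in Control. Regulators of the pathway had -0.35 and -0.16, and the LXR and export list had 0.17 and 0.12. In gate-negative cells the medians of the other enzymes were -0.96 in SLC7A11-Ab and -0.75 in Control, those of the fatty acid genes -0.46 and -0.52, and those of the regulators -0.42 and -0.29. The LXR and export list had -0.17 in SLC7A11-Ab and 0.48 in Control gate-negative cells, so its sign differed between the libraries.

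Hypoxic tumour cells were shallower, with a median of 15187 against 21331 UMIs in SLC7A11-Ab and 9142 against 12093 UMIs in Control. Split by depth into 14 bins over both classes and libraries, the sum was lower in the hypoxic cells of each bin, with log2 ratios from -1.38 to -0.47 and every interval below 0. The hypoxic ratios of single genes were not split by depth. Over all SLC7A11-Ab tumour cells, Idi1 was at 2.82 CPM at 5000 to 10000 UMIs and 19.9 CPM from 20000 UMIs. Fdps was at 23.5 and 79.1 CPM. In Control the values were 13.3 and 14.3 CPM for Idi1 and 67.1 and 71.8 CPM for Fdps. Mitochondrial genes took 1.07% of UMIs in hypoxic and 1.26% in other SLC7A11-Ab tumour cells, and 1.04% and 1.24% in Control. The nuclear RNA Malat1 took 0.898% and 0.610% in SLC7A11-Ab, and 1.12% and 0.708% in Control. The part of RNA quality in the result was not tested. The hypoxic cells are a range of a score and not a cell type: 324 of 1376 SLC7A11-Ab and 308 of 2440 Control tumour cells lay between 1000 and 2000 CPM.

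**Figure D2:**
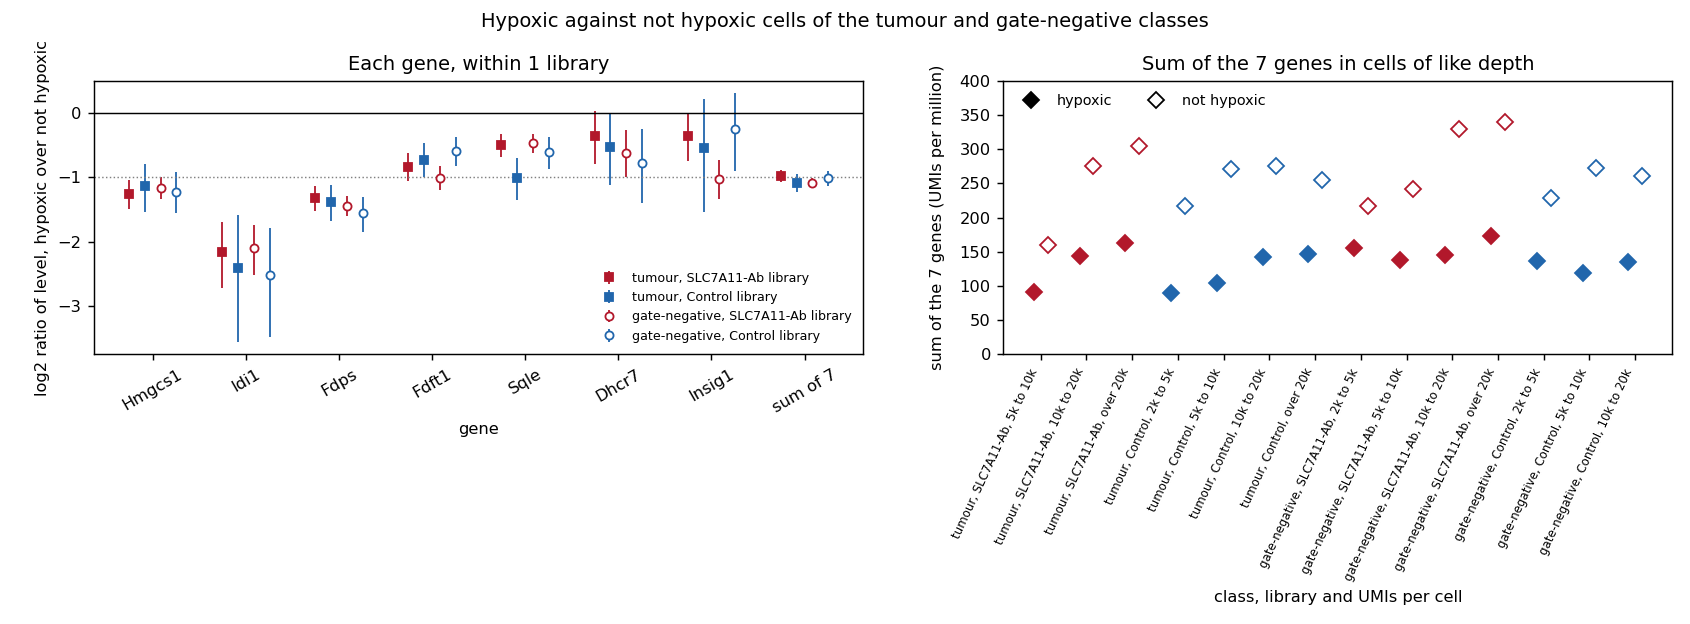
Left, log2 ratio of each gene's level in hypoxic over other cells (vertical axis) within 1 library, for tumour cells (squares) and gate-negative cells (open circles), SLC7A11-Ab in red and Control in blue, with exact 95% counting intervals and a dotted line at 2-fold lower. Right, summed level of the 7 genes (CPM) in hypoxic (filled) and other cells (open) of like depth; the filled point is the lower of each of the 14 pairs.

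Between treatments, tumour cells differed in single genes and hardly in the pooled sum. The sum was at 257 CPM in SLC7A11-Ab and 252 CPM in Control, a log2 ratio of 0.027 (-0.018 to 0.072). Its direction turned with depth. At 5000 to 10000 UMIs the sum was at 126 CPM (106 to 149) in SLC7A11-Ab and 233 CPM (221 to 246) in Control. It was at 222 and 264 CPM at 10000 to 20000 UMIs, and at 280 and 249 CPM from 20000 UMIs. Hmgcs1, Idi1, Fdps and Sqle were likewise lower in SLC7A11-Ab at 5000 to 10000 UMIs and higher from 20000 UMIs. The part of depth was not tested. Insig1 was at 12.1 CPM in SLC7A11-Ab and 5.43 CPM in Control (1.16, 0.90 to 1.43). Hmgcs1 was at 50.3 CPM in SLC7A11-Ab and 38.8 CPM in Control (0.37, 0.26 to 0.48), and Fdft1 at 43.9 CPM in SLC7A11-Ab and 58.5 CPM in Control (-0.41, -0.52 to -0.31). Insig1 was the 1 gene of the 7 at least 2-fold higher, against 10.4% of all genes, and 0 were 2-fold lower, against 4.31%.

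The other 4 genes lay between these. Sqle was at 53.4 CPM in SLC7A11-Ab and 45.3 CPM in Control (0.24, 0.14 to 0.34) and Idi1 at 17.0 CPM in SLC7A11-Ab and 14.5 CPM in Control (0.23, 0.044 to 0.41). Fdps was at 70.5 CPM in SLC7A11-Ab and 77.4 CPM in Control (-0.13, -0.22 to -0.050) and Dhcr7 at 9.97 CPM in SLC7A11-Ab and 12.5 CPM in Control (-0.32, -0.55 to -0.11). The median ratio over all 15177 genes was -0.18, so Fdps lay above that median and Fdft1 and Dhcr7 below it. With median-of-ratios scaling, which moves the tumour values up by 0.19, Fdps turned to 0.057.

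Gate-negative cells had the same genes at the ends. Insig1 was at 17.8 CPM in SLC7A11-Ab and 6.80 CPM in Control (1.38, 1.22 to 1.55), Hmgcs1 at 59.7 CPM in SLC7A11-Ab and 42.9 CPM in Control (0.48, 0.41 to 0.55) and Fdft1 at 46.8 CPM in SLC7A11-Ab and 56.4 CPM in Control (-0.27, -0.34 to -0.20). The size of the Insig1 difference varied with depth. It was at 17.8 CPM in SLC7A11-Ab and 12.3 CPM in Control at 2000 to 5000 UMIs, and at 17.9 and 4.88 CPM at 10000 to 20000 UMIs. Of the 7 genes 1, again Insig1, was at least 2-fold higher, against 11.3% of all genes, and 0 were 2-fold lower, against 4.17%. Fdps gave 0.19 (0.13 to 0.25), on the other side of 0 from the tumour class, and the sum gave 0.21 (0.18 to 0.24). Median depth was 11718 UMIs in SLC7A11-Ab and 7782 UMIs in Control, and both directions turned with depth. At 5000 to 10000 UMIs the sum was at 212 CPM in SLC7A11-Ab and 254 CPM in Control, and Fdps at 43.5 and 70.4 CPM. From 20000 UMIs the sum was at 323 and 245 CPM, and Fdps at 98.3 and 73.4 CPM. The part of depth was not tested here either.

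The share of hypoxic cells differed between the libraries, 446 of 1376 tumour cells in SLC7A11-Ab and 339 of 2440 in Control. Within hypoxic tumour cells the summed SLC7A11-Ab over Control ratio was 0.24 (0.082 to 0.40), and within the other tumour cells 0.14 (0.090 to 0.19), both above the pooled 0.027. SLC7A11-Ab cells were deeper in both sets, and the rise was not seen in each depth bin. At 5000 to 10000 UMIs the sum was at 91.4 CPM in SLC7A11-Ab and 103.6 CPM in Control hypoxic cells. It was at 143.4 and 142.8 CPM at 10000 to 20000 UMIs, and at 163.3 and 146.0 CPM from 20000 UMIs. In the other tumour cells it was at 160.0 and 271.0 CPM, 275.0 and 275.9 CPM, and 305.4 and 255.3 CPM in these bins. Insig1 gave 1.38 (0.57 to 2.40) in hypoxic and 1.19 (0.91 to 1.48) in other tumour cells. The sign of the pooled sum was not settled: it was -0.11 with cells thinned to 2000 UMIs and 0.22 with median-of-ratios scaling.

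**Figure D3:**
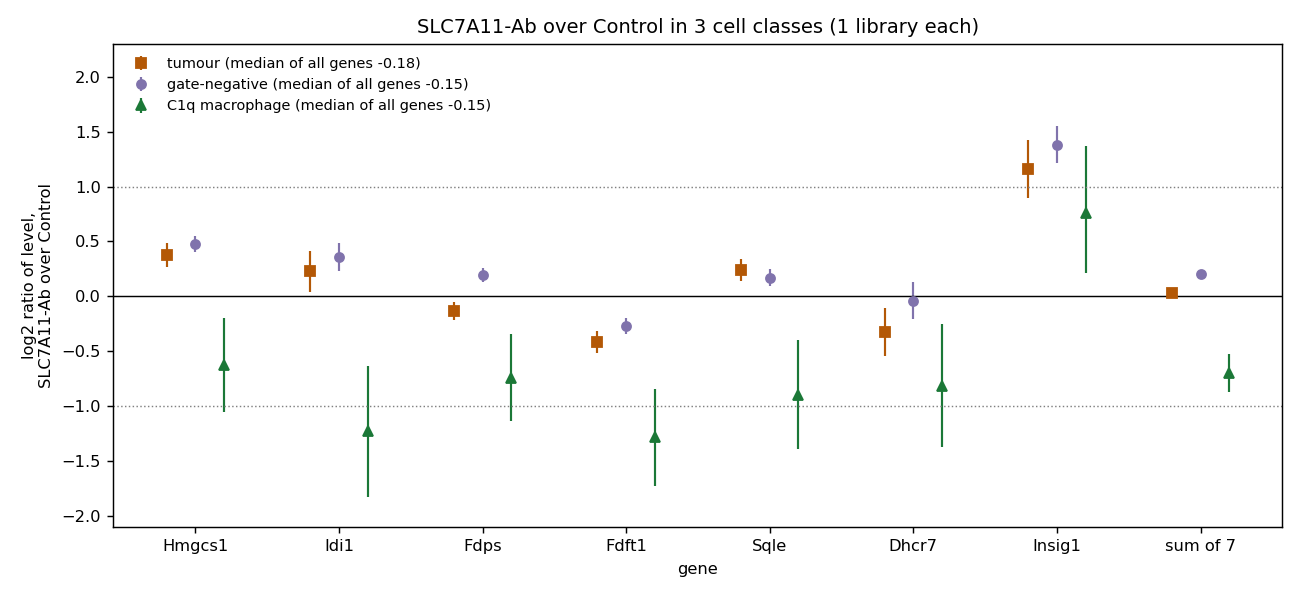
Log2 ratio of each gene's level in SLC7A11-Ab over Control (vertical axis) in tumour, gate-negative and C1q macrophage cells, 1 library per group, with exact 95% counting intervals and dotted lines at 2-fold. Insig1 lies above 0 in all 3 classes, and the other 6 genes lie below 0 in C1q macrophages.

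Of all genes tested in tumour cells, 37% lay above 0, with a median of -0.18, and the regulators and the fatty acid list were near these values. Among regulators, 3 of 10 lay above 0, with a median of -0.22. Those 3 were Scap (0.50, 0.25 to 0.74) and the SREBP genes Srebf1 (0.30, 0.14 to 0.45) and Srebf2 (0.24, 0.11 to 0.37), while Mbtps1, a protease that cleaves SREBP, was lowest (-0.53, -0.65 to -0.42). Of the other enzymes 4 of 14 lay above 0, with a median of -0.082. Pmvk, phosphomevalonate kinase, was lowest at 18.4 CPM in SLC7A11-Ab and 30.4 CPM in Control (-0.73, -0.88 to -0.58), and Msmo1, a sterol oxidase, was highest at 71.6 CPM in SLC7A11-Ab and 57.5 CPM in Control (0.31, 0.22 to 0.41). On the LXR and export list 6 of 7 lay above 0, with a median of 0.69, among them Nr1h2, the LXR beta gene, at 75.8 CPM in SLC7A11-Ab and 44.7 CPM in Control (0.76, 0.67 to 0.86). Abcg1, a sterol exporter on this list, was at 2.60 CPM in SLC7A11-Ab and 1.17 CPM in Control tumour cells. In C1q macrophages it was at 149.9 and 76.9 CPM, and these made up 9.16% of SLC7A11-Ab and 6.81% of Control cells. The part of free macrophage RNA in the tumour values of this list was not tested. Fatty acid synthesis genes had 4 of 10 above 0 and a median of -0.067, with Acsl3, which activates fatty acids, at 27.7 CPM in SLC7A11-Ab and 13.7 CPM in Control (1.02, 0.85 to 1.19).

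In C1q macrophages, gated on the complement genes C1qa, C1qb and C1qc, 6 of the 7 genes were lower in SLC7A11-Ab and Insig1 was higher. The sum was at 91.8 CPM in 998 SLC7A11-Ab macrophages and 149 CPM in 840 Control macrophages (-0.70, -0.87 to -0.53). Fdft1 was at 12.4 CPM in SLC7A11-Ab and 30.2 CPM in Control (-1.28, -1.73 to -0.85), and Idi1 at 7.06 CPM in SLC7A11-Ab and 16.6 CPM in Control (-1.23, -1.83 to -0.64). These are the 2 of 7 genes at least 2-fold lower, against 4.73% of all genes, and 0 were 2-fold higher, against 9.35%.

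The other 4 enzymes also had intervals below 0. Hmgcs1 was at 16.3 CPM in SLC7A11-Ab and 25.2 CPM in Control (-0.63, -1.05 to -0.19) and Fdps at 17.9 CPM in SLC7A11-Ab and 29.9 CPM in Control (-0.74, -1.14 to -0.34). Sqle was at 11.3 CPM in SLC7A11-Ab and 21.0 CPM in Control (-0.90, -1.39 to -0.40) and Dhcr7 at 9.10 CPM in SLC7A11-Ab and 16.0 CPM in Control (-0.81, -1.37 to -0.25). Insig1 was at 17.7 CPM in SLC7A11-Ab and 10.4 CPM in Control (0.76, 0.22 to 1.37), the only one of the 7 above 0. Counts were small, from 35 to 114 UMIs per gene and library, and the median over all 11450 genes was -0.15.

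Of all genes tested in C1q macrophages, 39% lay above 0, against 6 of 8 genes of the LXR and export list, whose median was 0.32. Nr1h3, the LXR alpha gene, was at 53.5 CPM in SLC7A11-Ab and 15.1 CPM in Control (1.81, 1.40 to 2.28). Abcg1, a sterol exporter, was at 149.9 CPM in SLC7A11-Ab and 76.9 CPM in Control (0.96, 0.76 to 1.17), and Mylip, a ubiquitin ligase induced by LXR, at 54.9 CPM in SLC7A11-Ab and 28.4 CPM in Control (0.95, 0.62 to 1.29). Ch25h, which makes an oxysterol, was lowest of the list (-0.22, -0.31 to -0.12). Of 14 other enzymes of cholesterol synthesis 0 lay above 0, with a median of -0.48. Pmvk (-1.01, -1.34 to -0.68), Cyp51, the lanosterol demethylase (-0.64, -1.04 to -0.23), and Ebp, a sterol isomerase (-0.49, -0.68 to -0.29), were among them. Regulators had 3 of 10 above 0 and a median of -0.27, against -0.15 for all genes. Intervals lay below 0 for 3 regulators and above 0 for 0. The lowest were Tmem97 (-0.77, -1.06 to -0.47), Insig2 (-0.63, -0.91 to -0.34) and Mbtps1 (-0.55, -0.94 to -0.15). Fatty acid synthesis genes had 3 of 10 above 0 and a median of -0.16, near the values for all genes.

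**Figure D4:**
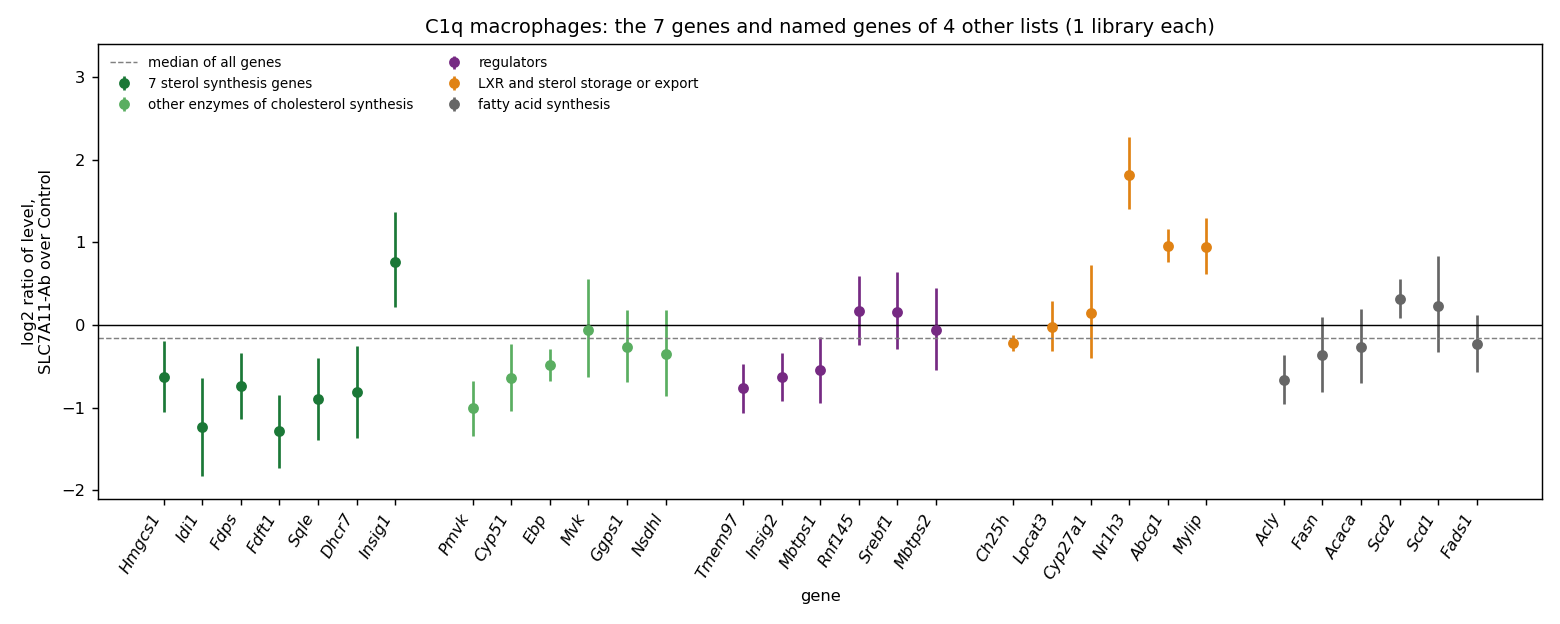
Log2 ratio of SLC7A11-Ab over Control (vertical axis) in C1q macrophages for the 7 genes and for the 3 highest and 3 lowest genes with at least 100 UMIs of each of 4 other lists; points are 1 library per group and bars exact 95% counting intervals. Nr1h3 lies highest at 1.81, and 6 of the 7 genes lie below 0 with Insig1 at 0.76.

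SLC7A11-Ab macrophages were more often Cxcl9-positive, 545 of 998 against 23 of 840 in Control. Within the SLC7A11-Ab library the sum was at 89.5 CPM in Cxcl9-positive and 95.3 CPM in Cxcl9-negative macrophages (-0.093, -0.33 to 0.15). Within Cxcl9-negative macrophages the SLC7A11-Ab over Control ratio was -0.64 (-0.87 to -0.41), with 6 of 7 genes below 0 and Insig1 at 0.93 (0.28 to 1.61). On the LXR and export list 6 of 8 genes lay above 0 in these cells, against 42.9% of all genes, with a median of 0.45. The highest ratio of that list was 1.25 there, so Nr1h3 lay below its 1.81 over all C1q macrophages. In macrophages of like depth the summed ratio was -0.54 (-1.54 to 0.36) at 500 to 2000 UMIs, -0.78 (-1.16 to -0.43) at 2000 to 5000 UMIs and -0.76 (-1.04 to -0.49) at 5000 to 10000 UMIs.

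Thinned to 2000 UMIs, 16.5% (14.1 to 19.2, Clopper-Pearson) of 841 SLC7A11-Ab macrophages and 26.3% (23.0 to 29.8) of 666 Control macrophages carried a UMI of the 7 genes. Shallower cells left out numbered 157 and 174. Unthinned shares were 37.5% and 36.2% at median depths of 5709 and 3575 UMIs. In neutrophils, the class with the lowest measured sum, unthinned shares were 4.42% in SLC7A11-Ab and 2.86% in Control, at 772 and 659 UMIs.

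Krt18 and Dcn, genes of tumour-type cells, were also read in the macrophages. Dcn is a fibroblast gene as well, and the source of this RNA was not tested. Krt18 stood at 9.36% of its tumour-type level in SLC7A11-Ab macrophages and 11.7% in Control macrophages, on 19 and 17 UMIs, and Dcn at 15.0% and 7.46%. The 6 lower genes stood at 21.7% to 90.7% of their tumour-type level in SLC7A11-Ab macrophages and 40.8% to 144% in Control macrophages. With doublets kept in, the summed ratio was -0.31 (-0.42 to -0.19), Hmgcs1 was at -0.033 (-0.30 to 0.24), Idi1 at -0.38 (-0.80 to 0.055) and Sqle at -0.26 (-0.56 to 0.042), so these 3 genes no longer had intervals below 0. The part of free or doublet RNA in the macrophage result was not tested.

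T cells and monocytes held few Control UMIs of the 7 genes. In T cells the sum was at 119 CPM in 807 SLC7A11-Ab cells and 94.3 CPM in 198 Control cells (0.31, -0.18 to 0.89), on 290 and 34 UMIs. Of the 7 genes 2 were at least 2-fold higher, against 11.2% of all genes: Sqle, on 2 Control UMIs, and Insig1, on 1. Fdps (-1.07, -1.96 to -0.014) was the 1 gene at least 2-fold lower, against 7.57%. With T cells thinned to 2000 UMIs the summed ratio was -0.19, so its direction was not settled.

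In monocytes the sum was at 141 CPM in 470 SLC7A11-Ab cells and 139 CPM in 107 Control cells (0.0037, -0.51 to 0.59). Among the 6 genes with at least 20 UMIs, 1 was at least 2-fold higher, Idi1 on 2 Control UMIs, against 12.7% of all genes. Fdft1 was the 1 gene at least 2-fold lower, against 8.19%. Its ratio was -1.88 (-3.19 to -0.38) on 14 and 8 UMIs. The Insig1 ratio had an interval above 0 in tumour cells, gate-negative cells and C1q macrophages. In monocytes it was 0.45 on 6 Control UMIs, with an interval that held 0, and T cells and neutrophils had 1 and 0 Control UMIs, too few for a direction.

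Mitotic tumour cells, with at least 1000 CPM of Mki67, Top2a, Cenpf and Ube2c summed, were higher in Fdft1 and lower in Hmgcs1 and Sqle than other tumour cells of both libraries. Mitotic cells were deeper, with a median of 26963 against 17147 UMIs in SLC7A11-Ab and 15724 against 10353 UMIs in Control. Over all tumour cells, Fdft1 rose from 18.8 CPM at 5000 to 10000 UMIs to 49.9 CPM from 20000 UMIs in SLC7A11-Ab. In Control it rose from 47.6 to 62.9 CPM between these bins. Hmgcs1 rose from 35.8 to 54.4 CPM in SLC7A11-Ab and fell from 43.3 to 35.9 CPM in Control. The mitotic contrast was not split by depth. Fdft1 was at 50.4 CPM in mitotic against 40.1 CPM in other SLC7A11-Ab cells (0.33, 0.17 to 0.49), and at 66.4 against 53.4 CPM in Control (0.31, 0.18 to 0.45). Hmgcs1 was at 45.5 CPM in mitotic against 53.1 CPM in other SLC7A11-Ab cells (-0.22, -0.38 to -0.069), and at 33.6 against 42.1 CPM in Control (-0.32, -0.50 to -0.16). Sqle gave -0.17 (-0.33 to -0.025) in SLC7A11-Ab and -0.22 (-0.37 to -0.061) in Control. Idi1 gave 0.028 (-0.24 to 0.29) in SLC7A11-Ab and -0.50 (-0.80 to -0.22) in Control, and Fdps 0.040 (-0.089 to 0.17) and -0.12 (-0.24 to -0.0045), with intervals below 0 in Control alone, a difference between libraries that was not tested. Dhcr7 and Insig1 had intervals that held 0 in both libraries. In gate-negative cells Fdft1 was again higher and Hmgcs1 and Idi1 lower in both libraries, with intervals that left out 0, while Sqle gave -0.051 (-0.17 to 0.064) in SLC7A11-Ab and -0.26 (-0.39 to -0.14) in Control. Decorin-high tumour cells (at least 3000 CPM of Dcn) had a sum of 224 CPM in 103 such cells against 259 CPM in the others (-0.20, -0.37 to -0.046) in SLC7A11-Ab and 202 CPM in 172 such cells against 254 CPM in the others (-0.33, -0.52 to -0.16) in Control. These cells were shallower, with a median of 13302 against 19646 UMIs in SLC7A11-Ab and 6416 against 11994 UMIs in Control. The tumour sum rose with depth in SLC7A11-Ab, and up to 20000 UMIs in Control. The decorin contrast was not split by depth. Interferon-stimulated tumour cells, with at least 1000 CPM of Ifit1, Ifit3, Rsad2, Isg15 and Cxcl10 summed, had a sum of 252 CPM in 335 such cells against 259 CPM in the others (-0.043, -0.12 to 0.031) in SLC7A11-Ab and 239 CPM in 225 such cells against 254 CPM in the others (-0.085, -0.20 to 0.024) in Control. In gate-negative cells the same contrast gave 0.066 (0.019 to 0.11) in SLC7A11-Ab and -0.14 (-0.23 to -0.063) in Control, on opposite sides of 0. The depth gap also differed in direction. Interferon-stimulated gate-negative cells had a median of 12366 against 11455 UMIs in SLC7A11-Ab and 6868 against 7886 UMIs in Control. The interferon contrast was not split by depth, and the difference between libraries was not tested.

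From cell to cell the 7 genes were sparse. In tumour cells thinned to 2000 UMIs, 67.4% of SLC7A11-Ab and 64.0% of Control cells had no UMI of the 7 genes, and the variance of the sum over its mean was 1.27 and 1.28. The 21 gene pairs had a median Pearson r of 0.0205 in SLC7A11-Ab and 0.0372 in Control, and at such counts a weak r is no finding. Among the 10 other genes most like the sum in each library, Cyp51 (r = 0.125 in SLC7A11-Ab and 0.168 in Control), Dbi (0.130 and 0.134) and Scd2 (0.126 and 0.100) were on both lists, over 1376 and 2440 cells. Across 14 class and library sums, which share library and depth, the 5 of 188 genes most like the members' mean log2 level were Lgals1 (r = 0.930), Hspa5 (0.886), Btf3 (0.859), mt-Co1 (0.854) and Hsp90ab1 (0.850).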

How the data were processed

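Whole-number UMI counts per gene and barcode were deposited by the authors, 1 table per library. Cell Ranger 7.2.0, Seurat and build mm10 are named, per the submitters' processing notes. The tables held 12153 SLC7A11-Ab and 13910 Control barcodes, and 143658800 and 129044329 UMIs. They shared 28526 gene identifiers, and a gene listed in 1 table was taken as 0 in the other. Barcodes were kept if they had 200 genes or more, 500 UMIs or more, and a mitochondrial share below 20%. By Scrublet score (scanpy 1.11.5), 0.8% of barcodes per 1000 cells were then removed, 1164 in SLC7A11-Ab and 1537 in Control.

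The 7 genes and the other lists were chosen with earlier results of these data known, and the gates were set after seeing the data. A gate asks for a least number and a least CPM of marker UMIs, such as 5 UMIs and 2000 CPM for C1q macrophages, 3 and 1000 for T cells and pDC, and 10 and 10000 for fibroblasts. A cell passing more than 1 gate was left out of these classes, except that a T cell was not also called NK. Counts were summed by class. Log2 ratios used a prior count of 0.5 and an exact conditional binomial interval, and levels an exact Poisson interval (scipy 1.17.1). The libraries were compared in classes of 100 cells or more on both sides, and levels were given from 50 cells. The ratio and interval were tested on simulated data. The genes named besides the 7 were the 3 highest and 3 lowest with at least 100 UMIs of each list in tumour cells and C1q macrophages, the 5 most like the members across class sums, and the 10 most like their sum across tumour cells. Alternatives changed the cell filter, doublet removal, gates, total, scaling, thinning, averaging, prior count and the classes taken off.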

Additional observations from a re-analysis of the deposited data

Results flagged for a closer look

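For 3 genes, the SLC7A11-Ab over Control log2 ratio had intervals on opposite sides of 0 in C1q macrophages and in tumour cells. Hmgcs1 stood at -0.63 in macrophages and 0.37 in tumour cells. Idi1 stood at -1.23 in macrophages and 0.23 in tumour cells. Sqle stood at -0.90 in macrophages and 0.24 in tumour cells. With doublets kept in, the macrophage values were -0.033, -0.38 and -0.26 for Hmgcs1, Idi1 and Sqle, with intervals that held 0, so none of the 3 then met that description. In tumour cells at 5000 to 10000 UMIs these 3 genes were lower in SLC7A11-Ab than in Control. The difference between the classes was not tested, since each group is 1 library.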

How the results depend on the processing

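No paired analysis was possible because each group has 1 library. In C1q macrophages the summed log2 ratio (-0.70) was below 0 under every alternative run, at -0.31 without doublet removal, -0.50 with median-of-ratios scaling and -0.91 after taking off the median of the other classes. The tumour sum (0.027) was 0.075 without doublet removal, -0.085 with gates on thinned cells, -0.11 with cells thinned to 2000 UMIs, 0.22 with median-of-ratios scaling, -0.064 as a mean over scaled cells and -0.18 after taking off the other classes (-0.078 with neutrophils left out of these, chosen after seeing the data). The whole-library sum (0.092) was 0.12 without doublet removal, 0.044 with a total that leaves out mitochondrial, ribosomal and haemoglobin genes, 0.23 with median-of-ratios scaling, -0.056 with thinned cells and -0.090 as a mean over scaled cells. The T cell sum (0.31) was -0.33 with gates on thinned cells and -0.19 with thinned cells. Median-of-ratios scaling shifted all genes by 0.26 at most and 0.14 at least. In alternatives chosen after seeing the data, a hypoxia gate at 1000 CPM gave -0.88 in SLC7A11-Ab and -0.86 in Control tumour cells, and -0.91 and -0.81 in gate-negative cells, and a gate at 2000 CPM gave -1.33 in Control tumour cells. Insig1 in tumour cells became -0.22 after taking off the median of the other 5 classes and 0.086 without neutrophils, which held 2 SLC7A11-Ab and 0 Control UMIs of it. In C1q macrophages the same steps gave -0.62 and -0.51 for Insig1. Sqle in T cells became -0.027 when thinned. Of 280 single-gene values under alternatives, 30 had the opposite sign to the main value, among them both tumour values of Hmgcs1 and Idi1 with the other classes taken off. The cause was not tested. Depth limits T cell, monocyte and pDC values, and the tumour and gate-negative sums changed direction between depth bins.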
